A study of Mus musculus with 34 samples.

Results

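The neutrophil-attracting Cxcl cluster comprised 6 chemokine genes on mouse chromosome 5, Cxcl5, Ppbp, Pf4, Cxcl3, Cxcl1 and Cxcl2, all transcribed from the plus strand. The members of the cluster were every ChIP-seq peak whose midpoint lay in the body of one of these genes or within 20 kb of it on either side. This rule found 333 of the 596383 peaks in 30 lists, and peaks that overlapped by at least 1 bp formed 38 elements of the 93024 loci of the series. The elements were 209 to 958 bp wide, with a median of 338 bp.

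ChIP-seq recovers the DNA bound by a protein with an antibody, and reads pile up into peaks where the protein was bound. The cells were thioglycollate-elicited macrophages (TGEMs), which enter the peritoneum of a mouse after an injection and were harvested 3 days later. They came from male mice, and the wild-type mice were 8 weeks old. The C57 cells, from mice named C57Bl/6EiJ in the labels and C57Bl/6J in the study's methods, and the Balb/cJ cells (BALB) received either vehicle (Veh, which was PBS) or 100 ng/mL KLA, a lipid that activates TLR4, for 1 h. The C57 lists covered the AP-1 monomers ATF3, Jun, JunD, Fos, Fra2 and JunB and the factors PU.1 and CEBPα under both treatments, and PPARγ with Veh. The BALB lists covered ATF3, Jun, JunD, Fos and JunB under both treatments. ATF3, Jun and JunD were also mapped with Veh in PPARgKO TGEMs, which are labelled C57Bl6. The age of these mice and how and in which cells the gene was deleted are not given in the sources used here. The 3 antibodies listed for PPARγ share 1 list.

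Each condition had 1 list, for which the authors had combined the replicates, so no spread between replicates could be computed (no replicates) and every difference below is a description of 2 lists. Depth differed widely, from a total of 203 counts in the smallest of the 29 lists with peaks to 13809143 in the largest, and the BALB list of Fos with Veh was empty. Because the counts are not scaled to depth, the strength of a peak is given by its place in its own list: a peak in the strongest 4% has a count that only 4% of the list equals or exceeds, itself included. A weaker peak may stand for fewer cells with the factor bound or for less binding in each cell, and these cannot be told apart. The lists carried the marks of macrophages: all 7 macrophage genes examined, such as Csf1r and Adgre1, had PU.1 or CEBPα peaks with Veh within 20 kb, with a median of 13 peaks for a gene against 2 over all protein-coding genes. The medians for genes of platelets and megakaryocytes, neutrophils, T cells and B cells were 3, 2, 1 and 2, and the neutrophil gene Ly6g had 0.

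The products of Cxcl1, Cxcl2, Cxcl3 and Cxcl5 are chemokines that carry a Glu-Leu-Arg motif and call neutrophils into tissue through the receptor CXCR2. Ppbp and Pf4 encode chemokines that are stored above all in the granules of platelets, and Pf4 lacks that motif. In macrophages, signalling from TLR4 to NF-kB and AP-1 switches on the genes of the neutrophil attractants within minutes to hours. AP-1 is a family of leucine zipper proteins that bind DNA as dimers, most often at the TRE (TGACTCA or TGAGTCA).

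The cluster fell into a pair of stretches. The first ran over 70.2 kb from Cxcl5 to Cxcl3 and held 68 peaks in 12 elements. The second, over 54.7 kb around Cxcl1 and Cxcl2, was shorter and held 265 peaks in 26 elements. The genes lie at chr5:90759360-90761624 (Cxcl5), chr5:90768518-90770063 (Ppbp), chr5:90772435-90773383 (Pf4), chr5:90786103-90789600 (Cxcl3), chr5:90891241-90893115 (Cxcl1) and chr5:90903871-90905938 (Cxcl2). The DNA just upstream of the gene starts differed among the 6 genes in a feature that the choice of peaks did not use. The 200 bases upstream of each GENCODE start are shown because they carry this difference and because the Cxcl1 and Cxcl2 promoters held peaks, whereas those of Cxcl5 and Ppbp held none. They were read from the plus strand of GRCm38 (mm10), and capitals mark the matches to NF-kB, TRE, CRE (TGACGTCA) and PU.1 (ACTTCCT) motifs on either strand.
Cxcl1, chr5:90891041-90891240: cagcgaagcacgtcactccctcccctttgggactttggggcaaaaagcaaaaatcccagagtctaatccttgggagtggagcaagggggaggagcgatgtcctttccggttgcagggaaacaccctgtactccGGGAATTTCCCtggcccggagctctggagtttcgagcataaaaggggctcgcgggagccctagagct
Cxcl2, chr5:90903671-90903870: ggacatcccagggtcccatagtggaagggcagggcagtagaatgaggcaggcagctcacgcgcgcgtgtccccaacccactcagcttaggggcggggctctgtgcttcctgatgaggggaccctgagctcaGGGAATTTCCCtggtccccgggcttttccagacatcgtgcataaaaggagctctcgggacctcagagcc
Cxcl3, chr5:90785903-90786102: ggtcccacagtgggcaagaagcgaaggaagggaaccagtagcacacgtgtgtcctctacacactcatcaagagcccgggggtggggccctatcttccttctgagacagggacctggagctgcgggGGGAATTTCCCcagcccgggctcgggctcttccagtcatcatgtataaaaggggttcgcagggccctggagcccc
Cxcl5, chr5:90759160-90759359: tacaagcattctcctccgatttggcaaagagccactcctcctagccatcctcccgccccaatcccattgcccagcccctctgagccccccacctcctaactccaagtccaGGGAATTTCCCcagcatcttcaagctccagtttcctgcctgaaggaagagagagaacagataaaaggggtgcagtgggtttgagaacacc
Ppbp, chr5:90768318-90768517: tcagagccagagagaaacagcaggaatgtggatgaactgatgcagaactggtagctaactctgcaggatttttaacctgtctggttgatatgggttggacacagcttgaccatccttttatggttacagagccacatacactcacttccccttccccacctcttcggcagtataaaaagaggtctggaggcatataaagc
Pf4, chr5:90772235-90772434: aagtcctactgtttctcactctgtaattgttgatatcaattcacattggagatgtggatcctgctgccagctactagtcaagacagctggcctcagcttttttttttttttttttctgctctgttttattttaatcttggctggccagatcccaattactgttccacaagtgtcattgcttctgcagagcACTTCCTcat

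The same 11-base string, GGGAATTTCCC, lay in the promoters of Cxcl1, Cxcl2, Cxcl3 and Cxcl5. It spans overlapping matches to the NF-kB motif. Its first base stood 67 bp upstream of the Cxcl1 start, 69 bp upstream of Cxcl2, 75 bp upstream of Cxcl3 and 90 bp upstream of Cxcl5. On the plus strand of the genome, the only strand searched for it, the string was found in 5 of 21938 promoters of protein-coding genes. These 4 neutrophil attractants were all but 1 of the holders found (the other was Krtap5-3, a keratin-associated protein gene). The string differs from its reverse complement, so copies on the minus strand were not counted and the number of holders is a lower limit. Any match to the NF-kB motif was found in 3.51% of promoters. Neither Ppbp nor Pf4 had one in this window, although Pf4 had one 51 bp downstream of its start, and the Pf4 promoter instead had a PU.1 motif ending 4 bp before the start. None of the 6 windows held a TRE or a CRE, which were found in 3.20% and 1.86% of all promoters. A match is a description of the letters and says nothing about whether a factor was bound.

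Peaks at the gene starts also differed among the genes. No list had a peak centred within 1 kb of the start of Cxcl5 or of Ppbp, as was the case for 52.5% of the 21938 protein-coding genes. The starts of Pf4 and Cxcl3 had 9 and 1 such peaks. Those of Cxcl1 and Cxcl2 had 16 and 36, in 10 and 21 lists. Of the 6 genes, Cxcl1 was the one with C57 AP-1 peaks within 1 kb of its start with KLA and none with Veh, which held for 5.90% of all genes.

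The windows of Cxcl1 and Cxcl2 also held the most peaks. Within 20 kb of Cxcl1, the 6 C57 AP-1 lists with KLA held 82 peaks, a number that 0.511% of protein-coding genes reached, and those with Veh held 19, reached by 4.23%. Cxcl2 had 45 peaks with KLA and 12 with Veh, and 2.47% and 9.84% of genes reached these numbers. The windows of Cxcl1 and Cxcl2 overlap, and every peak in that of Cxcl2 is also counted for Cxcl1. The window of Cxcl5 held 11 with KLA and 5 with Veh, and the windows of Ppbp, Pf4 and Cxcl3, which overlap and share their peaks, each held 6 and 3. The medians over all genes were 2 and 1. A window grows with the length of its gene, and those of the cluster spanned 40.9 to 43.5 kb.

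**Figure D1:**
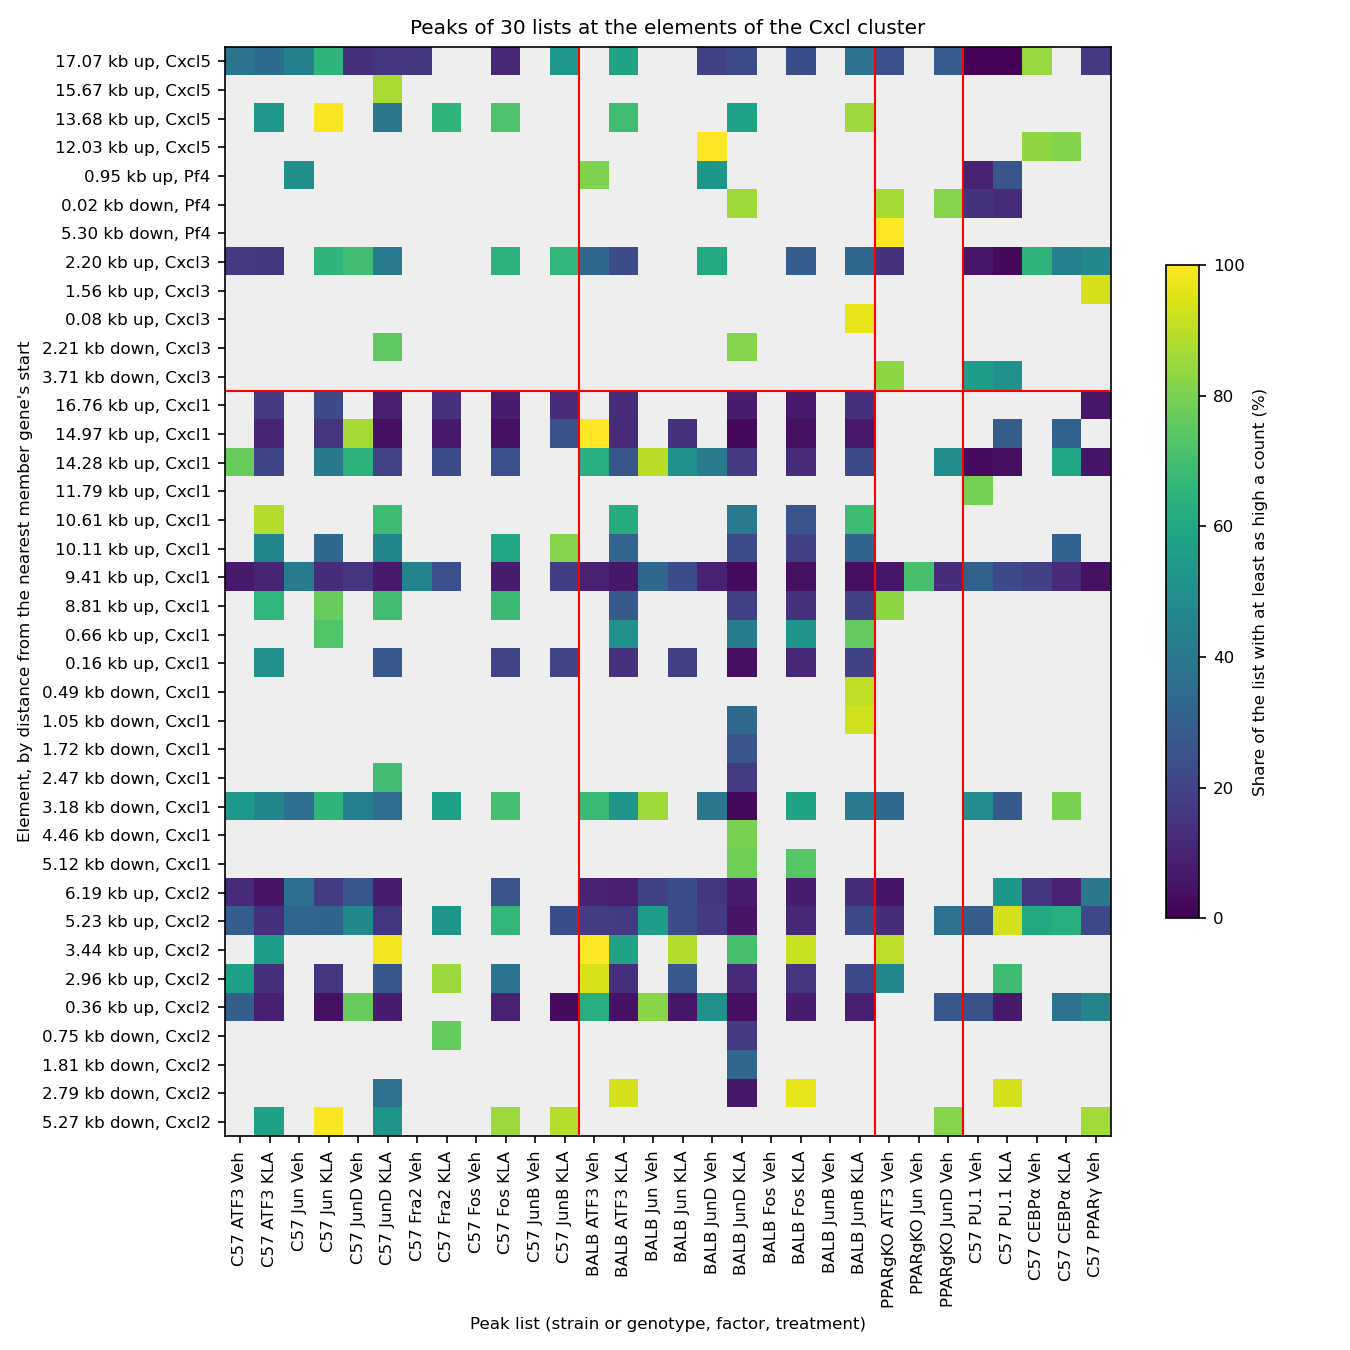
Elements of the cluster in genomic order (rows, named by the distance of their midpoint in kb upstream or downstream of the nearest member gene's start) against the 30 peak lists (columns); colour gives the share of the list with at least as high a count (%), dark for the strongest peaks, and grey means no peak. The red horizontal line separates the 12 elements from Cxcl5 to Cxcl3 from the 26 around Cxcl1 and Cxcl2, where the KLA columns hold more peaks than the Veh columns; vertical lines separate C57 AP-1, BALB, PPARgKO and the other C57 factors.

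In C57 TGEMs, 25 elements held an AP-1 peak. After KLA, 14 of them (56.0%) held AP-1 peaks where no monomer had one with Veh, against 38.0% of the 48864 C57 AP-1 loci of the series. AP-1 peaks were present under both treatments at 10 elements. A single element (4.00%) had AP-1 with Veh alone, against 12.9% of all loci. Of the 14 elements with KLA peaks alone, 11 lay around Cxcl1 and Cxcl2, where 19 of the 25 elements with C57 AP-1 lay. From Cxcl5 to Cxcl3 it was 3 of 6, so the stretches had similar shares. The 14 became 9 of 17 elements when only the strongest 50% of each list was used and 9 of 20 with lists of equal length. The share of all loci was not computed under these settings, so whether the cluster stays above it there is not known. Every monomer had more peaks in the cluster with KLA. ATF3 went from 9 peaks with Veh to 20 with KLA, Jun from 6 to 17, JunD from 9 to 24 and Fra2 from 2 to 10. Their KLA lists were also longer than their Veh lists. The lengths were 36745 against 23160 peaks for ATF3 and 17480 against 15548 for Jun. For JunD they were 31640 against 19653, and for Fra2 10619 against 5329. Fos and JunB had no peak in the cluster with Veh and 18 and 10 with KLA, from Veh lists of 1804 and 463 peaks and KLA lists of 24365 and 13375. Of its elements ATF3 gained 50.0% where 43.3% of its loci in the series were gained, Jun gained 64.7% where the series had 34.9%, and JunD gained 59.1% where it had 45.0%. Of the 6 C57 monomers, Jun stood farthest above its background. Fos gained all 16 of its elements and JunB all 10, close to the 92.7% and 96.6% of all loci, and Fra2 gained 8 of 10 against 59.8%.

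Measured as a share of all counts of a list, binding to the cluster was higher with KLA for each monomer. Jun had 3.82 of every 10000 counts here with Veh (95% Wilson interval 3.30 to 4.42) and 10.2 with KLA (9.4 to 11). JunD went from 4.35 (3.99 to 4.75) to 8.68 (8.51 to 8.87), Fra2 from 4.30 (3.36 to 5.52) to 9.48 (8.72 to 10.3) and ATF3 from 4.55 (4.24 to 4.88) to 6.67 (6.41 to 6.95). Fos and JunB reached 8.58 and 8.87 with KLA from 0. These intervals cover counting error and nothing else, and reads without molecular identifiers are not independent molecules. The covered length and the mean count were both higher with KLA for Jun: the Jun peaks of the cluster spanned 1.64 kb with Veh and 4.58 kb with KLA, and their mean count went from 29.7 to 37.2, while the mean over the whole Jun list went from 30.0 to 35.6. For ATF3 the covered length was 1.99 kb and 4.74 kb, and for JunD it was 2.26 kb and 5.78 kb.

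**Figure D2:**
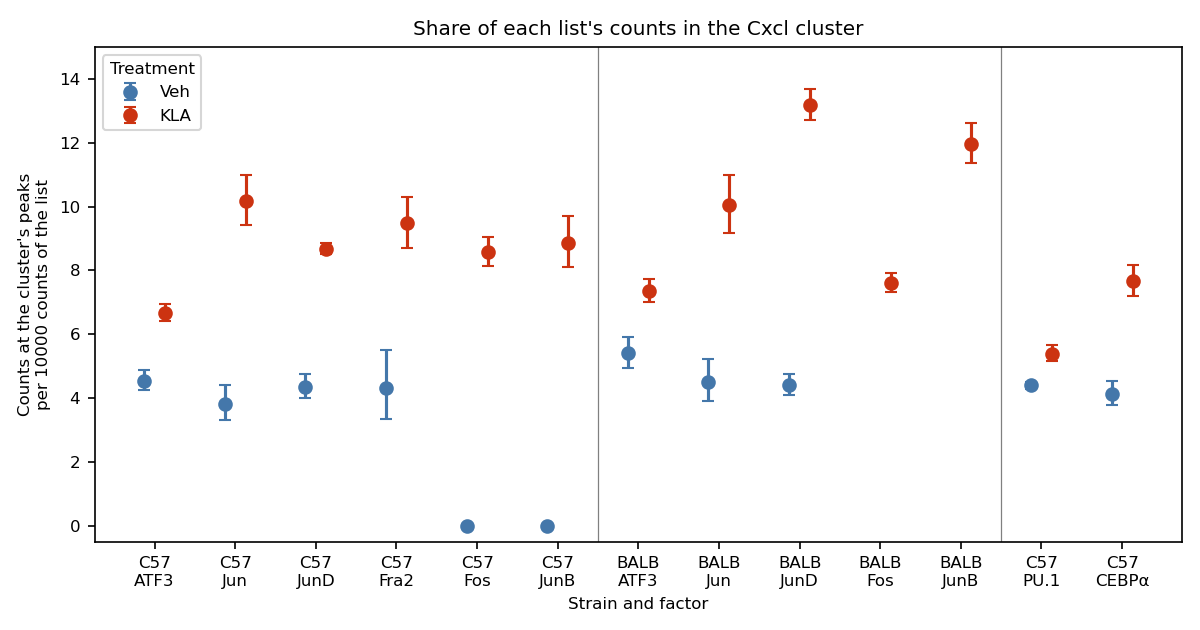
Counts at the cluster's peaks per 10000 counts of the list (vertical axis) for each strain and factor (horizontal axis), with Veh in blue and KLA in red; bars are 95% Wilson intervals for counting error, each point is 1 list, and points at 0 are lists with no peak in the cluster. The BALB Veh lists of Fos (empty) and JunB (9 peaks) are not drawn. All 9 AP-1 pairs drawn for both treatments have KLA above Veh, and JunD in BALB is highest with 13.2.

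Elements held before KLA also moved up within their lists. Among the 9 elements that JunD occupied under both treatments, 8 had a stronger place after KLA, and the median went from the strongest 47.9% to the strongest 15.4%. Over all 15291 kept JunD loci 57.2% were stronger after KLA, with medians of 41.8% and 33.2%. ATF3 also had 8 of 9 stronger, with medians of 30.4% and 14.0%, against 64.3% of all kept loci. Jun had 3 of 5, against 44.4%. JunD entered the strongest 10% of its KLA list at 4 of the 9 kept elements that were outside it with Veh, where 10.7% of such loci did so in the series. ATF3 did so at 2 of 8 (10.7% of all loci) and Jun at 0 of 5 (9.39%).

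The promoter of Cxcl2, whose product is also known as MIP-2, held the strongest C57 AP-1 peaks with KLA among the 6 gene starts. Its element, chr5:90903057-90903960, runs from intergenic DNA into the first exon and held 33 peaks in 20 lists. With KLA, JunB had its strongest peak of the cluster here, ranked 421 of 13375 with a count of 95 (strongest 3.33%). Jun, which had no Veh peak at this element in C57, ranked 708 of 17480 with a count of 74 (strongest 4.35%). JunD moved from the strongest 76.7% with Veh (count 38) to the strongest 7.85% (count 626, in a list whose median count was 277 against 50 with Veh). ATF3 moved from the strongest 30.4% (count 79) to 8.84% (count 194), and Fos was in the strongest 9.33% with KLA. The nearer peak of PU.1, a factor that defines the macrophage lineage, moved from 24.8% to 7.37%. Fra2 was the one C57 monomer with no peak at this element.

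AP-1 peak centres in the nearer of 2 groups at the Cxcl2 promoter lay closer to the gene start with KLA. The farther group of peaks was centred 556 to 674 bp upstream. With Veh it held peaks of BALB ATF3, BALB JunD and C57 PU.1, and no C57 AP-1 peak. With KLA, C57 ATF3, Jun, JunD and Fos also had peaks there, centred 611 to 656.5 bp upstream. In the nearer group, the 6 AP-1 peaks with Veh were centred 237.5 to 306.5 bp upstream of the start (median 276.5 bp). The 10 with KLA were centred 93.5 to 214.5 bp upstream (median 138.5 bp). Both counts pool monomers of C57 and BALB, and the Veh count also takes in PPARgKO, so the peaks are not replicates. How often loci of the series show such separate ranges was not computed. CEBPα, which had a peak in this group with KLA alone, was centred 282.0 bp upstream, within the range of the Veh peaks. The nearer PU.1 peak was centred at nearly the same place under both treatments, at 230.0 bp with Veh and 222.5 bp with KLA, and PPARγ with Veh was centred at 275.5 bp. PU.1 motifs begin 228 and 645 bp upstream in this element. C57 JunD moved by 168.5 bp and C57 ATF3 by 72.5 bp, when the strongest peak of each list at the element was taken. Shifts of at least that size were seen at 2.43% of kept JunD loci and 7.33% of kept ATF3 loci, and the median shift was 21 bp and 19 bp. The NF-kB match shown above lies 59 to 69 bp upstream. No NF-kB subunit was among the lists, and whether the match bears on the place of the AP-1 peaks was not tested.

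**Figure D3:**
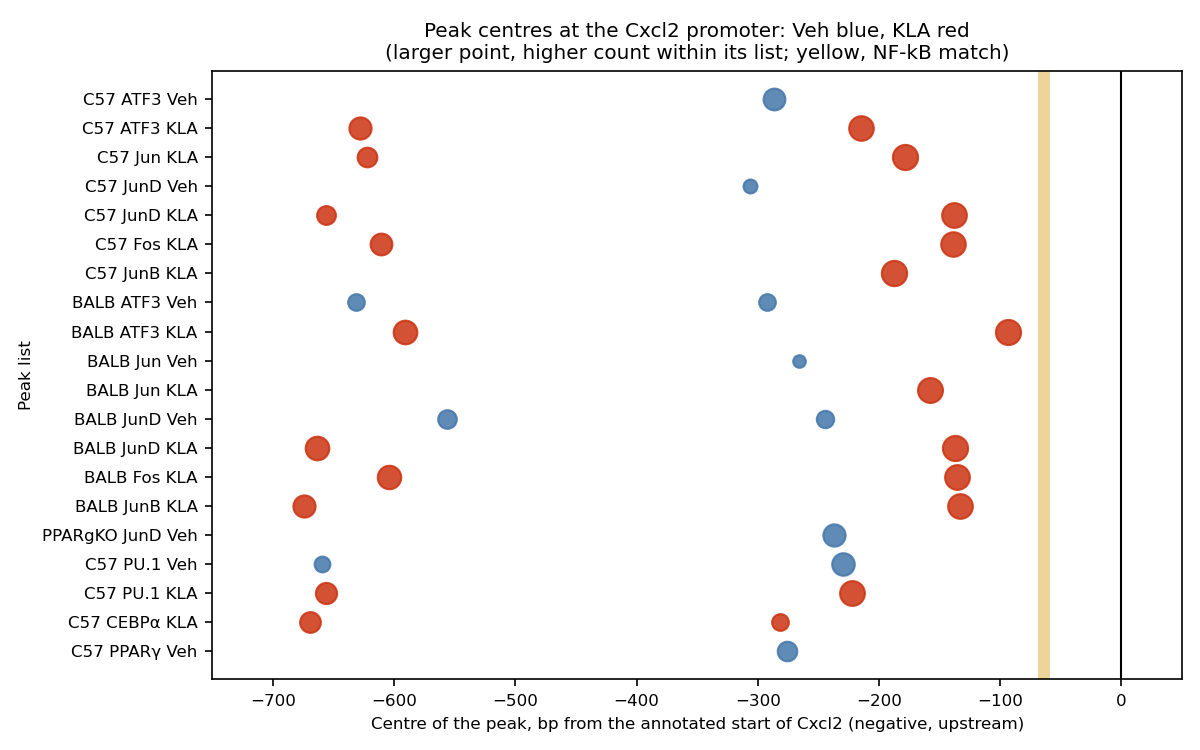
Centres of all peaks at the Cxcl2 promoter element, in bp from the annotated gene start (horizontal axis, negative upstream) for each peak list (vertical axis), with Veh in blue, KLA in red, larger points for peaks with a higher place in their list and a yellow band for the 11-base NF-kB match. In the group nearer to the start, the AP-1 peaks with KLA lie 93.5 to 214.5 bp upstream and those with Veh 237.5 to 306.5 bp.

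At Cxcl1, which encodes KC, the promoter element chr5:90890924-90891238 held no peak in any Veh list. ATF3, JunD, Fos and JunB had peaks there in C57 with KLA, in the strongest 50.7%, 27.2%, 20.4% and 20.4% of their lists, and Jun and Fra2 had none. PU.1, CEBPα and PPARγ had no peak at the element under any treatment. A second element 0.66 kb upstream, chr5:90890419-90890753, held a weak C57 Jun peak with KLA (strongest 73.0%) and no other C57 peak. In BALB, all 5 monomers bound the promoter element with KLA, and JunD was in its strongest 4.13%.

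Cxcl3 had its main element 2.20 kb upstream, at chr5:90783763-90784052, with peaks in 18 lists. PU.1 was strongest here, in the strongest 5.88% with Veh and 2.10% with KLA. C57 ATF3 stayed at 17.0% and 15.7%, JunD went from 69.4% to 40.9%, and Jun, Fos and JunB appeared with KLA at 65.5%, 64.3% and 65.9%. The Cxcl3 promoter itself, chr5:90785910-90786135, which contains the NF-kB string, had a single peak, BALB JunB with KLA, in the strongest 96.7% of its list and so among the weakest.

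Of the platelet chemokine genes, Ppbp had no peak at its start, and at Pf4 the PU.1 peaks stood higher in their lists than the AP-1 peaks. The element at the Pf4 start, chr5:90772320-90772596, overlaps exonic sequence of Pf4 and was in the strongest 14.5% of the PU.1 list with Veh and 12.2% with KLA. It had no C57 AP-1 peak, and its AP-1 peaks, ATF3 and JunD in PPARgKO and JunD in BALB with KLA, were all in the strongest 82.0% or weaker. The neighbour 0.95 kb upstream, chr5:90771278-90771693, was the one element where C57 AP-1 was present with Veh and absent with KLA: Jun had a count of 26 (strongest 49.9%) and PU.1 went from 9.65% to 26.5%. BALB ATF3 and JunD were present there with Veh and absent with KLA as well. This element was also the only one of the 25 C57 AP-1 elements with a CRE, and it holds a TRE as well.

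Upstream of Cxcl5 the element at 17.1 kb, chr5:90742097-90742473, had peaks in 20 lists and was the strongest PU.1 site of the cluster. PU.1 ranked 345 of 41573 with Veh (strongest 0.842%) and 427 of 40645 with KLA (1.07%). ATF3 was at 38.4% with Veh and 35.4% with KLA, JunD at 13.7% and 15.4% and Jun at 44.1% and 65.5%, so none of these monomers entered the strongest 10% of its KLA list here. Fos arrived with KLA at 11.2%, and Fra2, at 15.8% with Veh, had no KLA peak.

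A run of elements lay between 17 and 8 kb upstream of Cxcl1, and 2 of them are printed because they stand for a site bound under both treatments and a site that was new with KLA. The central 200 bases of each element are given on the plus strand of GRCm38, with TRE, CRE, NF-kB and PU.1 matches in capitals.
9.41 kb upstream of Cxcl1, chr5:90881735-90881934: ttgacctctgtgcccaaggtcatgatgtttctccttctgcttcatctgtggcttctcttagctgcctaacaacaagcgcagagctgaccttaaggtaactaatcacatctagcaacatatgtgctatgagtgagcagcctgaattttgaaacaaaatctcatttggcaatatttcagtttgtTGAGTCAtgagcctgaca
16.76 kb upstream of Cxcl1, chr5:90874377-90874576: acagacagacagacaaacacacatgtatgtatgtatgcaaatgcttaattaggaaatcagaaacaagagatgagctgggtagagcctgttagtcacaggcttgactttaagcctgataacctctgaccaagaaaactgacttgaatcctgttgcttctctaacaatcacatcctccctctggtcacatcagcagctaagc

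The element 9.41 kb upstream of Cxcl1 (chr5:90881577-90882091) was found in more lists than any other of the cluster. It had a peak in 26 of the 29 lists that held any, missing in C57 Fos and JunB with Veh and in the 9-peak BALB JunB list. C57 ATF3 was in its strongest 7.33% with Veh and 10.3% with KLA, and PPARγ, a nuclear receptor that regulates lipid metabolism, in its strongest 4.53%. JunD went from 15.6% to 7.42%, Jun from 41.4% to 13.1% and Fra2 from 44.8% to 24.5%, and Fos and JunB appeared at 7.90% and 18.5%. CEBPα was present at 19.4% with Veh and 12.1% with KLA. A TRE lies near the right end of the printed window.

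The element 14.97 kb upstream was weakly bound before KLA and held the strongest C57 JunD, Fos and Fra2 peaks of the cluster after it. With Veh, C57 JunD was the one monomer with a peak, in the strongest 86.9% of its list (count 34). With KLA all 6 C57 monomers were present, with JunD in the strongest 4.01% (count 723), Fos in 4.51%, Fra2 in 7.35%, ATF3 in 10.4%, Jun in 15.3% and JunB in 24.9%. PU.1 and CEBPα also had peaks with KLA and none with Veh.

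The element 16.76 kb upstream (chr5:90874232-90874721) had no AP-1 peak with Veh in any list and all 6 C57 monomers with KLA, from the strongest 7.90% (Fos) to 22.0% (Jun). PPARγ occupied it with Veh, in its strongest 5.99%, whereas PU.1 and CEBPα were absent under both treatments. It contains no match to any of the motifs searched. Of the 14 C57 elements with AP-1 after KLA alone, 2 had a Veh peak of PU.1, CEBPα or PPARγ (14.3%, against 33.7% of all such loci in the series), and in both it was PPARγ.

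Nearer to Cxcl1, the wide element 14.28 kb upstream (chr5:90876483-90877440) was composite. With Veh, C57 ATF3 and JunD were centred 13.9 kb upstream together with PPARγ (strongest 5.50%), and PU.1 was centred 14.2 kb upstream (2.98% with Veh, 4.19% with KLA). With KLA a further group of AP-1 peaks appeared 14.5 to 14.6 kb upstream, with ATF3 in the strongest 20.9%, JunD in 20.5%, Fos in 24.2% and Fra2 in 22.8%, while the ATF3 and JunD peaks at the Veh position remained at 69.4% and 57%.

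Between the genes, the element 3.18 kb downstream of the Cxcl1 start (chr5:90894103-90894748) had peaks in 19 lists. In C57 its AP-1 peaks were of middling strength under both treatments, ATF3 at 53.3% and 45.9% and JunD at 43.3% and 36.1%. The elements 6.19 kb (chr5:90897484-90897874) and 5.23 kb (chr5:90898227-90899051) upstream of Cxcl2 had peaks in 20 and 24 lists. The first was the strongest C57 ATF3 site of the cluster with KLA, at 5.30% after 11.9% with Veh, and it had the strongest CEBPα peak, at 9.21% after 16.3%. At the second, ATF3 went from 29.9% to 14.0% and JunD from 47.9% to 16.4%, and all 6 monomers were present with KLA.

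**Figure D4:**
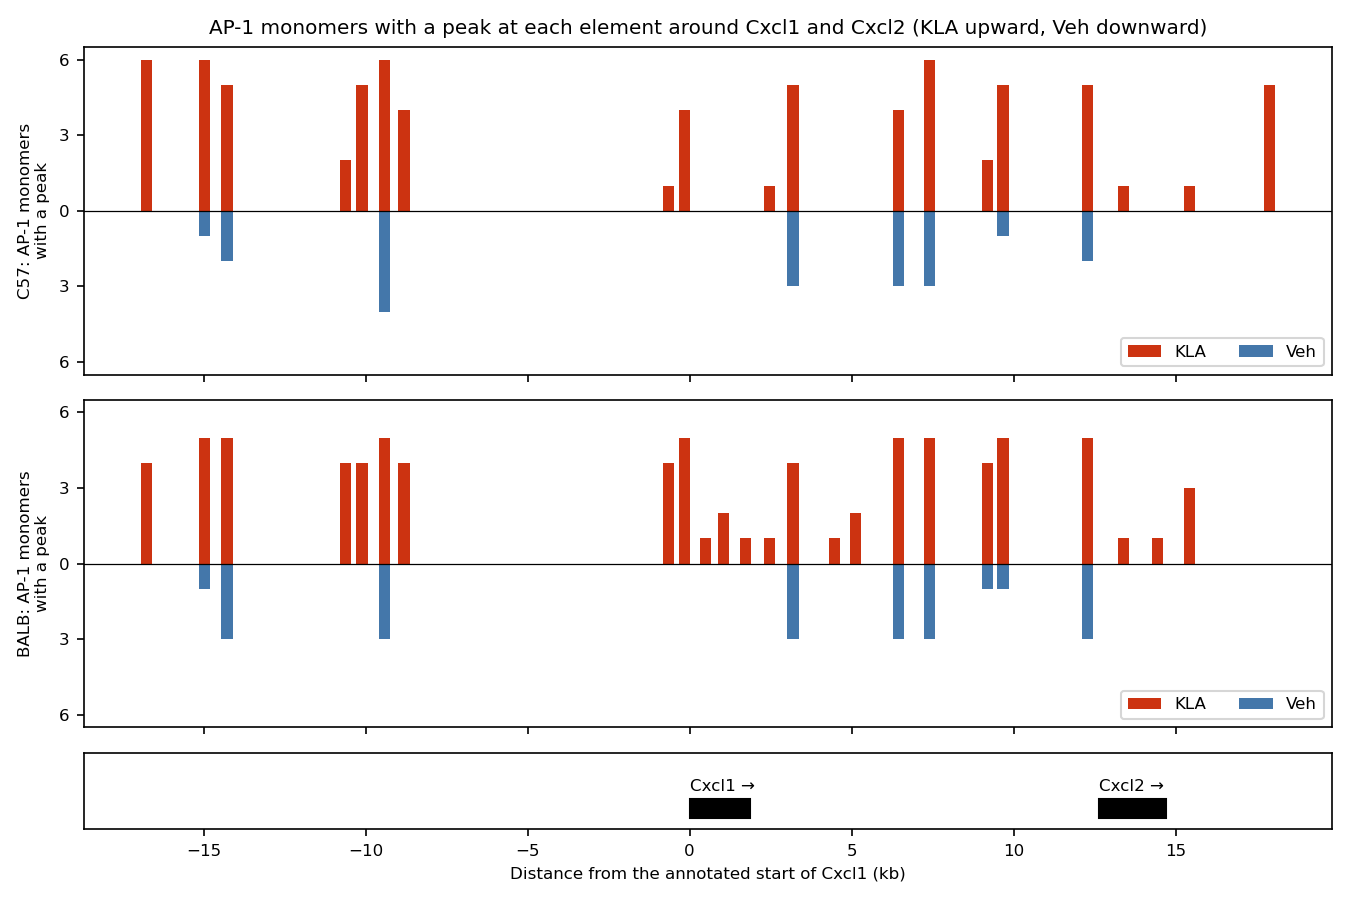
Number of AP-1 monomers with a peak (vertical axis, KLA upward in red, Veh downward in blue) at each element around Cxcl1 and Cxcl2, by distance from the Cxcl1 start in kb (horizontal axis), in C57 with 6 monomers mapped and BALB with 5. Black boxes are the gene bodies. The 0.16 kb element at the Cxcl1 start has 4 C57 and 5 BALB monomers with KLA and none with Veh.

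All 6 C57 monomers met with KLA at 4 of the 24 elements that had any (16.7%, against 13.9% of all loci): those 16.76, 14.97 and 9.41 kb upstream of Cxcl1 and 5.23 kb upstream of Cxcl2. In the 14 elements with KLA peaks alone, 6 had a single monomer and the others between 2 and 6. PU.1 gained 4 of its 15 elements with KLA (26.7%, 19.0% of all loci), and CEBPα gained 5 of 11 (45.5%, 30.9% of all). As a share of its counts CEBPα went from 4.14 per 10000 (3.79 to 4.52) to 7.67 (7.20 to 8.17), and PU.1 from 4.41 (4.30 to 4.52) to 5.39 (5.15 to 5.65). The TRE was found in the central 200 bp of 8 of the 25 C57 AP-1 elements (32.0%, against 26.1% of all loci). A CRE was found in 1 (4.00%, 1.38% of all), the PU.1 motif in 4 (16.0%, 19.0% of all) and the CEBP motif TTGCNNAA in 4 (16.0%, 15.5% of all). An NF-kB match was found in the central 200 bp of 1 (4.00%, 5.30% of all). The Cxcl1 and Cxcl2 promoter elements also hold NF-kB matches, but outside their central 200 bp, so this count leaves them out. With 1 mismatch allowed 19 elements held a TRE, but the share of all loci was not computed for this looser match. The 17 elements without an exact TRE in that window include the Cxcl1 promoter, the Cxcl2 promoter and the elements 6.19 and 5.23 kb upstream of Cxcl2.

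In BALB TGEMs the count over all monomers was again above its background, while single monomers differed from C57. Of 32 elements with a BALB AP-1 peak, 19 (59.4%) had AP-1 with KLA alone, against 42.8% of all BALB loci. The empty Fos list and the 9-peak JunB list with Veh enter this count. ATF3 gained 9 of 20 elements (45.0%, 51.4% of all loci), Jun 4 of 10 (40.0%, 34.6%) and JunD 20 of 30 (66.7%, 35.4%). How often the strains shared a state was not computed over all loci, so the next counts have no background. Each of the 10 elements with C57 AP-1 under both treatments had BALB AP-1 under both treatments too, and 11 of the 14 C57 elements with KLA peaks alone had that state in BALB. One of the other 3, 3.44 kb upstream of Cxcl2, had a weak BALB ATF3 peak with Veh (strongest 99.7%). The remaining pair had no BALB AP-1 peak and are named because of that: a weak C57 JunD peak 15.7 kb upstream of Cxcl5, and the element 5.27 kb downstream of Cxcl2 (chr5:90908988-90909288), where 5 C57 monomers had peaks with KLA between the strongest 51.9% and 99.2%. PPARgKO JunD had a Veh peak there as well (strongest 82.0%). This element holds a TRE in the reference genome, and the BALB/cJ sequence was not analysed here.

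With KLA the lists of the strains differed in length, with 17480 Jun peaks in C57 and 11317 in BALB, and 13375 and 21667 JunB peaks. Jun had peaks in C57 and not in BALB at 9 of 18 elements (50.0%, 44.9% of all loci) and the reverse at 2 (11.1%, 15.3%). JunB was the other way round, with 11 of 21 elements in BALB and not in C57 (52.4%, 45.0%) and 1 (4.76%, 11.1%) the reverse. For Fos the numbers were 5 of 21 (23.8%, 43.1%) and 2 (9.52%, 5.80%), and for ATF3 2 of 20 (10.0%, 18.8%) and 1 (5.00%, 18.8%). JunD was found in BALB and not in C57 at 8 of 30 elements (26.7%, 24.5%) and the reverse at 3 (10.0%, 19.1%). All 5 BALB monomers met at 8 of 30 elements with KLA (26.7%, against 17.2%), the promoters of Cxcl1 and Cxcl2 among them.

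Entry into the strongest 10% was most frequent for BALB JunD, at 4 of 6 kept elements (8.74% of all loci), with ATF3 at 1 of 8 (12.6%) and Jun at 1 of 5 (9.82%). At the Cxcl2 promoter the nearer BALB JunD peak went from 59.0% to 4.24%, Jun from 82.4% to 6.22% and ATF3 from 62.8% to 4.74%. The element 14.97 kb upstream of Cxcl1 was the strongest BALB JunD site of the cluster with KLA (strongest 2.02%), followed by the one 3.18 kb downstream of the Cxcl1 start (2.30%). JunD in BALB also had KLA peaks along the genes, 3 in the body of Cxcl1 and 2 in that of Cxcl2, where C57 JunD had none. These were 0.89, 1.21 and 1.72 kb from the Cxcl1 start and 0.83 and 1.81 kb from the Cxcl2 start, in the strongest 17.1% to 43.6%. A peak 2.62 kb from the Cxcl2 start, beyond the gene's end, reached 6.32%. In the body of Cxcl3 JunD had 1 peak with KLA in both strains, and in that of Pf4 it had 1 in BALB alone. How many genes of the series have BALB JunD peaks and no C57 JunD peak in their body was not computed. JunB in BALB had peaks 0.49 and 1.11 kb into Cxcl1, in the strongest 90.3% and 92.6%, and C57 Fra2 had 2 peaks inside Cxcl2, at 80.5% and 76.2%. The BALB JunD list devoted 13.2 of every 10000 counts to the cluster with KLA (12.7 to 13.7) and 4.41 with Veh (4.09 to 4.75), over 8.15 and 2.93 kb of peaks with mean counts of 92.1 and 56.8.

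In PPARgKO TGEMs, which were mapped with Veh alone, Jun kept 1 of the 6 elements it had in wild type, so 5 were absent (83.3%), near the 77.9% of all Jun loci. The one kept was 9.41 kb upstream of Cxcl1, in the strongest 41.4% of the wild-type list and 71.0% of the knockout list. The knockout Jun list held 4290 peaks and the wild-type list 15548, and the strongest of the 6 wild-type peaks stood at 32.4% of its list, so when both lists were cut to 4290 peaks no wild-type Jun peak remained in the cluster to be compared. ATF3 lacked 2 of its 9 wild-type elements in the knockout (22.2%, 20.7% of all loci): the composite element 14.28 kb upstream of Cxcl1 and the Cxcl2 promoter. JunD lacked 4 of 9 (44.4%, 45.6%) but kept the Cxcl2 promoter, at 76.7% of its list in wild type and 27.2% in the knockout. Conversely, 5 of 12 knockout ATF3 elements (41.7%, 35.9%) and 2 of 7 JunD elements (28.6%, 45.4%) had no wild-type peak of that factor. The 5 ATF3 peaks were all in the strongest 82.9% or weaker of their list.

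Beyond the elements named by the rule, the 19 others had peaks in 1 to 14 lists, and their best peaks stood between 12.3% and 99.97% of the list. Some of the 19 are mentioned singly and were chosen after their values were seen. They lie 15.7 kb upstream of Cxcl5, 3.44 and 2.96 kb upstream of Cxcl2 and 5.27 kb downstream of it. Others lie 2.21 kb from the Cxcl3 start, 1.72 kb from the Cxcl1 start and 1.81 kb from the Cxcl2 start. Of the 19, 9 had C57 AP-1 with KLA alone, 9 had no C57 AP-1, and 1, the element 2.96 kb upstream of Cxcl2, had it under both treatments.

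Genes that act with these chemokines were counted the same way. Of 18 such genes, which include the receptor gene Cxcr2, the granulocyte growth factor genes Csf2 and Csf3, the endothelial adhesion genes Icam1 and Vcam1 and the NF-kB feedback gene Tnfaip3, 16 had at least 1 C57 locus with AP-1 after KLA alone within 20 kb, as did 43.4% of all protein-coding genes. At least 1 locus with AP-1 under Veh alone was found for 6 of the 18, against 29.7% of genes. The median was 2 loci with KLA alone, and the 6 Cxcl genes had a median of 1.5, from 1 for Ppbp, Pf4 and Cxcl3 to 7 for Cxcl2 and 11 for Cxcl1. These counts are not separate: the 7 of Cxcl2 are among the 11 of Cxcl1, and the locus of Ppbp, Pf4 and Cxcl3 is a single element 2.21 kb downstream of the Cxcl3 start. A number of 11 or more was reached by 0.561% of all genes. Tnfaip3 had 9 and Nfkb1 17, the latter in a window of 147 kb. Cxcl15, which lies between Cxcl3 and Cxcl1, had 1. The chemokine receptor gene Cxcr1 and Ackr1, which encodes a scavenging receptor, had none.

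Across the 29 lists, the genes whose numbers of peaks followed those of the cluster most closely were Dock10, Ptprj, Arhgef3, Lims1 and Macrod2, with Spearman correlations of 0.96 to 0.95 among 659 genes with at least 50% as many peaks. The points are lists that differ in length, and the median over these genes was 0.805.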

How the data were processed

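Transcription factor ChIP-seq of thioglycollate-elicited macrophages after double crosslinking comprised 34 samples, of which 4 inputs without a list were not analysed here. As the study's methods state, reads were aligned with Bowtie2 at its default settings, which report 1 alignment for a read, to mm10, or to a BALB/cJ genome built from mm10 and shifted back to its positions, and peaks were called with HOMER against input and filtered across replicates with IDR 2.0.3. The authors deposited a whole-number count per peak, not scaled to depth, and a score derived from the IDR (540 at an IDR of 0.05, at most 1000). How replicate counts were combined and whether coordinates start at 0 or 1 are not given in the sources used here, and positions were read as starting at 1. Reads in stretches alike between Cxcl1, Cxcl2 and Cxcl3 may be assigned to the wrong copy.

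Overlapping peaks of the lists (minimum 1 bp) were merged into loci, and GENCODE M21 genes were extended by 20 kb. A place in a list is the share of its peaks with a count at least as high. A locus was gained where a factor had a peak with KLA and none with Veh. With 1 list for a condition no test was made, and 95% intervals are Wilson intervals. Elements are named where they lie within 1 kb of a gene start, hold a peak in the strongest 10% of a list or are among the 5 present in the most lists, and a few others were chosen after their values were seen and are said to be so. The members and lists were chosen with earlier results of these data known. Motifs were searched exactly on both strands of GRCm38, which is the C57BL/6J sequence. The sequence of 1 element is not reported here. The joining of peaks and the motif search were tested on simulated data. Python 3.11.15, pandas 2.3.3, numpy 2.4.6, scipy 1.17.1 and matplotlib 3.10.9 were used. Windows of 10 and 50 kb, other ways of joining peaks, stricter peak sets, lists of equal length, ranking by score and other motif settings were tried as alternatives.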

Additional observations from a re-analysis of the deposited data

How the results depend on the processing

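The number of elements lay between 28 and 48 under 8 alternatives (38 as reported), that of C57 AP-1 elements bound under both treatments between 7 and 11 (10 as reported), and that of BALB elements with AP-1 after KLA alone between 15 and 24 (19 as reported). The 14 C57 elements with AP-1 after KLA alone became 9 of 17 with 10 kb windows, 9 of 17 with the strongest 50% of each list and 9 of 20 with lists of equal length. The 5 Jun elements absent in PPARgKO became 0 of 0 with counts at or above the pooled median of 54 and 0 of 0 with lists of equal length, since no wild-type Jun peak of the cluster was left. The 8 elements with a TRE became 5 of 17 with the strongest 50% of each list, 5 of 25 in the central 100 bp and 19 of 25 with 1 mismatch allowed. A search of the whole element, an alternative added after seeing the data, gave 8. None of these alternatives was computed over all loci of the series. Ranking peaks by the deposited score moved the median place of the 333 peaks from 33.8% to 63.7%, because many scores are tied at 1000. Leaving out a replicate could not be done, since each list combines its replicates. No paired analysis was possible because the lists carry no replicate values. List lengths between 0 and 41573 peaks limit what the absence of a peak shows, above all for Fos and JunB with Veh and Jun in PPARgKO.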
